A study of Mus musculus with 9 samples.

Results

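The ER chaperones of the unfolded protein response were followed here as 10 genes of the 19686 in the deposited count table, taken by their gene names: Hspa5, Hsp90b1, Pdia4, Dnajb9, Sdf2l1, Creld2, Herpud1, Xbp1, Hyou1 and Dnajc3. Hepatic RNA of 9 male Wistar rats was sequenced, with 3 rats in each of the control, model and DSS groups. The control group drank purified water and received saline by gavage, the model group drank 15% fructose and received saline, and the DSS group drank 15% fructose and received an extract of Danggui-Shaoyao-San, a Chinese herbal formula, at 1.8 g/kg. Treatment lasted 8 weeks in all groups, and every rat was fasted for 12 h and anaesthetised with chloral hydrate before the liver was taken. DSS is the group name in the labels. By the study's methods, the extract taken to liver transcriptomics was the one made with methanol and water. In the labels the organism is the mouse but the strain a rat. Since the genes carry rat Ensembl identifiers, the libraries were read as rat liver. The fructose drink is a dietary model in an outbred stock, and no gene was altered.

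The unfolded protein response adjusts the protein folding capacity of the endoplasmic reticulum (ER) to its load. The sensors IRE1, ATF6 and PERK sit in the ER membrane and are held inactive in part by the chaperone BiP. When activated, IRE1 splices the messenger RNA of Xbp1, ATF6 is cut to release a transcription factor, and PERK slows translation while ATF4 is made. Xbp1 and ATF6 raise the chaperones and the disposal machinery of the ER, and ATF4 raises amino acid and stress genes. Hepatocytes secrete large amounts of plasma protein, and this pathway is also tied to lipid synthesis in the liver.

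The best known link between these genes is a short element in their promoters, and those sequences are shown first. No rat promoter was used here, and the windows are those of the mouse orthologues in RefSeq (GRCm38.p6), which held 9 of the 10 genes, all but Hyou1. Each window ran from 250 bases before to 50 bases after the annotated start. Both strands were searched for the ER stress response element ERSE (CCAAT and CCACG with 9 bases of any kind between), for ERSE-II (ATTGG and CCACG with 1 base between), which shares its CCACG with ERSE, and for the XBP1 and ATF6 element UPRE (TGACGTGG). ERSE was present in 4 of the 9 windows and in 39 of all 32851 windows (0.119%). ERSE-II was present in 1 of the 9 and in 12 of all windows (0.0365%), while UPRE was in 0 of the 9 and in 222 of all windows (0.676%). These motifs were chosen with the expression values known and as elements already linked to such genes, so the shares are a description and not a test. The 5 windows with a match are given below by their 250 bases before the start, 5′ to 3′ in the direction of the gene, with the match in capitals. They lie at chr2:34771840-34772089 (plus strand) for Hspa5, chr10:86705445-86705694 (minus) for Hsp90b1, chr15:88819396-88819645 (plus) for Creld2, chr8:94386179-94386428 (plus) for Herpud1 and chr14:118937682-118937931 (plus) for Dnajc3.
Hspa5: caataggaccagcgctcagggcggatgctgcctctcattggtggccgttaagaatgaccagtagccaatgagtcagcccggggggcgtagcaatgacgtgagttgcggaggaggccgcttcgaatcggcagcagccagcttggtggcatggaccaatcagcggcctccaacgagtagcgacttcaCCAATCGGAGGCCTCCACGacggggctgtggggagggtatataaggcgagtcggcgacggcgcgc
Hsp90b1: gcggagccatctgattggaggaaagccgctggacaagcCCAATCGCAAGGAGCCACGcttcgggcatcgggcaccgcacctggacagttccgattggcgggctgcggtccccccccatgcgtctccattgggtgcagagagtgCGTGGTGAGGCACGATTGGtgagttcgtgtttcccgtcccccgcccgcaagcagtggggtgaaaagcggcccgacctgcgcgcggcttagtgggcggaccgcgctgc
Creld2: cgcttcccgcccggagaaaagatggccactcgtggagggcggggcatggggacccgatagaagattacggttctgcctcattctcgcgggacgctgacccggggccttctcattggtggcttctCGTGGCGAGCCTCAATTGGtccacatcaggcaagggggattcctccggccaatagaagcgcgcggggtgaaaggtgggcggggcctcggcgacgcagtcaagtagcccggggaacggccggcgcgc
Herpud1: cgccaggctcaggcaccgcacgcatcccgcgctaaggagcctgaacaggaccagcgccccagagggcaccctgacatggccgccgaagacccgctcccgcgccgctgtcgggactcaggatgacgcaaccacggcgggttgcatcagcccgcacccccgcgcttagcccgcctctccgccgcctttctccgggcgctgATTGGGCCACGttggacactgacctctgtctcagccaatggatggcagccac
Dnajc3: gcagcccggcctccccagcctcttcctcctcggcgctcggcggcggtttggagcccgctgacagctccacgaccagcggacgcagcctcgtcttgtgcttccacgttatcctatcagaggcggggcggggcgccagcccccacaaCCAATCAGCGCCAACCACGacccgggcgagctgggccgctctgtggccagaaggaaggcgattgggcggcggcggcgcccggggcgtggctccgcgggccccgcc
The Hspa5 match spans 65 to 47 bases before the start, and Hsp90b1 holds a match at 212 to 194 bases and a second on the opposite strand at 107 to 89. In Creld2 it lies on the opposite strand at 126 to 108 bases, in Dnajc3 at 105 to 87 bases and in Herpud1, as ERSE-II, at 52 to 42 bases. Pdia4, Dnajb9, Sdf2l1 and Xbp1 held none of the searched letters in these windows. As a check of the starts, bases just after each were searched for in mouse transcripts of the gene. They were not found for Pdia4, Xbp1 and Dnajc3, so the starts of these windows are less certain. Among other genes of the same compartment, ERSE or ERSE-II was found in 5 of 17 other ER folding genes (29.4%), namely Calr, Canx, Pdia6, Dnajb11 and Ero1b, in 2 of 14 genes of ER-associated degradation and translocation (14.3%), Syvn1 and Derl3, and in 0 of 10 sensors, 0 of 10 PERK and ATF4 targets and 0 of 9 cytosolic and mitochondrial chaperones, against 49 of 27025 genes in all (0.181%). A match describes letters in a mouse window and is not a measured binding site.

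All 10 genes had counts in every library, from 252 to 25610 counts per gene and library, and all passed the filter on low counts. Total counts per library ranged from 14345819 to 26837227. Levels are given as CPM, the counts of a gene scaled to the TMM-normalized size of its library, and are compared between rats and not between genes, since they are not divided by gene length. Each comparison was fitted with edgeR on the 6 libraries of its groups, and called genes had to pass both thresholds of the study, a log2 fold change of 0.5 or more in either direction and a false discovery rate (FDR) no higher than 0.01. With 3 rats a group, the smallest p of an exact permutation test is 0.1. On the second principal component, with 23% of the variance, model replicate 1 stood apart at -59.1, the next library lying at -16.2.

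Of the 10 genes, edgeR called 0 in every comparison, and DESeq2 called 1, Hyou1, in DSS against control. As a group they were highest in the control rats. Their share of all counts was 0.310% to 0.364% in the control group, 0.233% to 0.268% in the model group and 0.183% to 0.239% in the DSS group, so the control rats lay above all others. Their summed level was 3114 ± 134, 2571 ± 111 and 2268 ± 388 CPM in control, model and DSS rats (SD, n = 3). Group means were ordered control, model, DSS for 5 genes, Hspa5, Hsp90b1, Pdia4, Creld2 and Hyou1. In bulk liver, fewer cells of a type and less RNA per cell cannot be told apart.

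**Figure D1:**
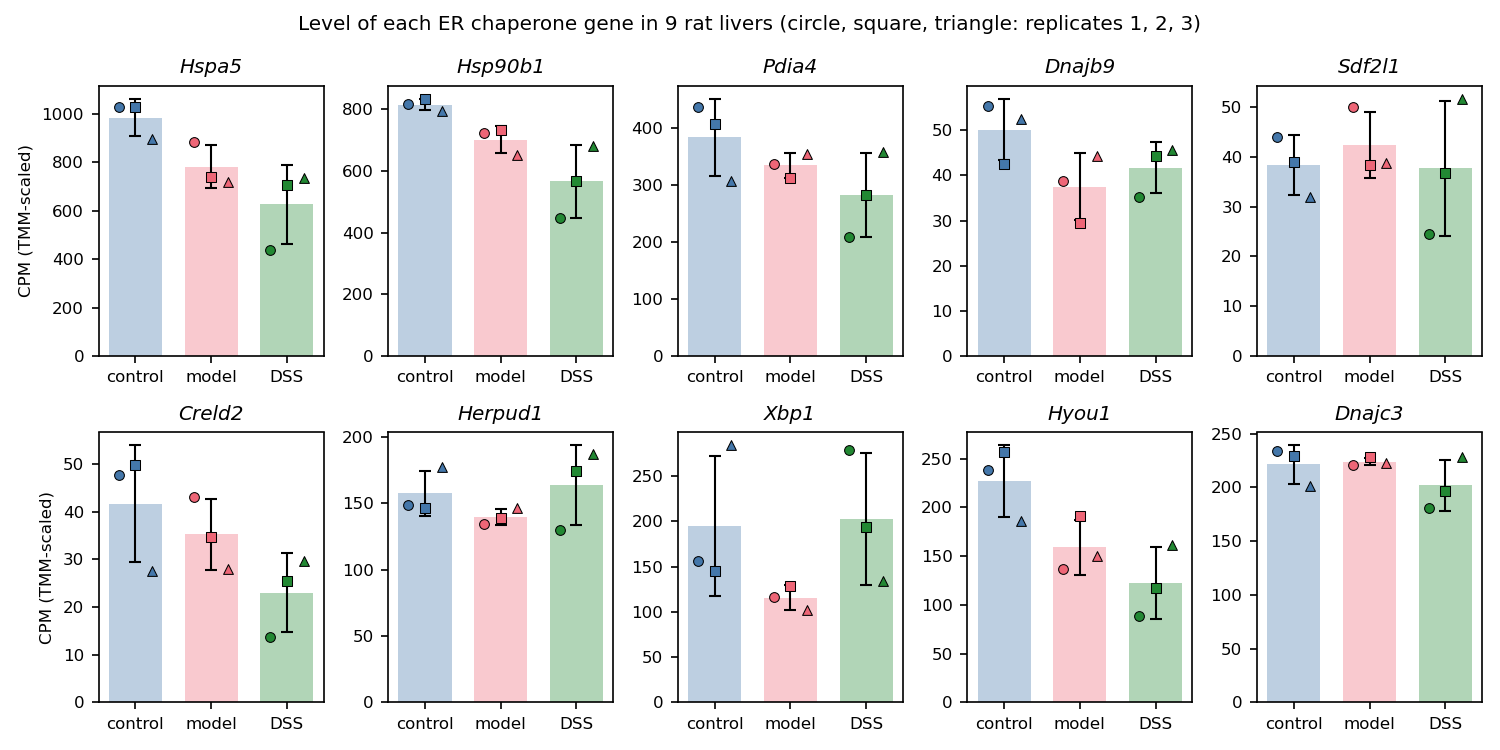
Level in CPM (vertical axes, starting at 0) of each of the 10 genes in the 9 rats, by group: bars are means, error bars SD (n = 3) and symbols single rats. Hspa5, Hsp90b1 and Hyou1 step down from control to DSS, while Xbp1 is low in the 3 model rats (102 to 129 CPM) and spread in the other groups.

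Hspa5 (ENSRNOG00000018294) encodes BiP, the Hsp70 chaperone of the ER and the standard readout of the unfolded protein response. Its level was 1030, 1030 and 896 CPM in the control rats, 884, 740 and 721 CPM in the model rats and 439, 705 and 736 CPM in the DSS rats. Every control rat lay above every other rat, and the model and DSS rats overlapped. The model mean was 0.794 times the control mean (log2 fold change -0.33, SE 0.154, edgeR FDR 0.407), and all 3 model rats were lower. The DSS mean was 0.635 times the control mean (log2 fold change -0.66, SE 0.193, edgeR FDR 0.076). Between the DSS and model groups the log2 fold change was -0.31 (SE 0.216, edgeR FDR 0.81), and it was -0.12 without DSS replicate 1, the lowest of the 9 rats.

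Hyou1 (ENSRNOG00000010944) encodes GRP170, a large ER relative of Hsp70 that helps BiP to exchange nucleotide. With Creld2, it had the widest difference of the 10 genes between the DSS and control groups. Its level was 238, 257 and 186 CPM in the control rats, 137, 191 and 150 CPM in the model rats and 88.7, 117 and 162 CPM in the DSS rats. The DSS rats did not overlap the control rats, while model replicate 2 lay above control replicate 3. The DSS mean was 0.538 times the control mean, with a log2 fold change of -0.89 (SE 0.223) and an edgeR FDR of 0.051. DESeq2 on the same counts gave an FDR of 0.00164, so that Hyou1 passed both thresholds there and missed the FDR threshold in edgeR. Against the control group the model group differed by -0.51 on the log2 scale (SE 0.177, edgeR FDR 0.267).

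Dnajb9, Dnajc3 and Sdf2l1 act beside BiP. Dnajb9 (ERdj4, ENSRNOG00000004006) and Dnajc3 (P58IPK, ENSRNOG00000010352) carry the J domain that stimulates Hsp70 proteins, and Sdf2l1 (ENSRNOG00000001859) is an ER protein that binds J-domain partners of BiP. Dnajb9 stood at 55.5, 42.5 and 52.5 CPM in the control rats, 38.7, 29.5 and 44.4 CPM in the model rats and 35.3, 44.3 and 45.6 CPM in the DSS rats. The groups overlapped, and the model group differed from the control group by -0.42 on the log2 scale (SE 0.184, edgeR FDR 0.38). Dnajc3 varied least, between 181 and 234 CPM over the 9 rats, with group means of 221 ± 17.8, 224 ± 3.55 and 202 ± 24.1 CPM in the control, model and DSS groups. Sdf2l1 was spread most within the DSS group, at 24.6, 36.8 and 51.7 CPM, a range that held all 6 rats of the other groups. Its group means were 38.4 ± 6.05, 42.4 ± 6.61 and 37.7 ± 13.6 CPM, and no order among them stood above the spread. Between the DSS and control groups the log2 fold changes were -0.27 for Dnajb9, -0.13 for Dnajc3 and -0.03 for Sdf2l1, with edgeR FDRs of 0.271, 0.57 and 0.964.

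Hsp90b1, Pdia4 and Creld2 serve later folding steps. Hsp90b1 (GRP94, ENSRNOG00000026963) is the Hsp90 chaperone of the ER, with clients among secreted and membrane proteins. Its level was 817, 832 and 795 CPM in the control rats, 721, 733 and 650 CPM in the model rats and 447, 568 and 682 CPM in the DSS rats. The control rats were the tightest group and lay above all 6 fructose-fed rats. The log2 fold change was -0.53 between the DSS and control groups (SE 0.159, edgeR FDR 0.0792) and -0.22 between the model and control groups (SE 0.134, edgeR FDR 0.531).

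Pdia4 (ERp72, ENSRNOG00000006228), a disulfide isomerase, stood at 436, 407 and 307 CPM in the control rats, 336, 312 and 355 CPM in the model rats and 209, 282 and 357 CPM in the DSS rats. The groups overlapped, and the DSS group differed from the control group by -0.44 on the log2 scale (SE 0.209, edgeR FDR 0.235). Creld2 (ENSRNOG00000004659) is an ER protein with EGF-like repeats that is induced by ER stress. Its level was 47.7, 49.7 and 27.6 CPM in the control rats, 43.0, 34.7 and 28 CPM in the model rats and 13.7, 25.5 and 29.7 CPM in the DSS rats. It varied more between single rats than any other of the 10, with DSS replicate 1 at the bottom and control replicate 2 at the top, 3.63 times higher. The DSS group differed from the control group by -0.86 on the log2 scale (SE 0.345, edgeR FDR 0.195) and from the model group by -0.61 (SE 0.287, edgeR FDR 0.669).

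Herpud1 (ENSRNOG00000018796) encodes a membrane protein of ER-associated degradation, which returns misfolded proteins to the cytosol. Its level was 149, 146 and 177 CPM in the control rats, 134, 139 and 146 CPM in the model rats and 130, 174 and 187 CPM in the DSS rats. The model rats lay just below the control rats, the nearest rats of the groups both rounding to 146 CPM, and the DSS rats spanned both groups. The log2 fold changes were -0.17 for model against control (SE 0.134, edgeR FDR 0.619) and 0.24 for DSS against model (SE 0.161, edgeR FDR 0.807). Herpud1 and Xbp1 were the genes whose means were ordered DSS, control, model.

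Xbp1 (ENSRNOG00000010298) encodes the transcription factor that IRE1 activates by splicing, and counts per gene do not separate its spliced and unspliced forms. Its level was 156, 145 and 284 CPM in the control rats, 116, 129 and 102 CPM in the model rats and 279, 194 and 134 CPM in the DSS rats. The 3 model rats were the lowest of the 9, below all control and all DSS rats. The model group differed from the control group by -0.76 on the log2 scale (SE 0.260, edgeR FDR 0.267), a value that shrank to -0.38 without control replicate 3. The DSS group differed from the model group by 0.81 (SE 0.253, edgeR FDR 0.416), which shrank to 0.50 without DSS replicate 1. Between the DSS and control groups the difference was 0.04 (SE 0.360, edgeR FDR 0.959), and it ranged from -0.25 to 0.42 as single rats were left out.

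Set against all genes, the 10 genes leaned downward in the model rats without passing the test. Between the model and control groups 0 of 10 were called by edgeR, where 0.0801% of 12486 tested genes were, and DESeq2 called 0, where it called 2.05% of all genes. At an unadjusted p under 0.05, edgeR had 2 of 10 lower, Xbp1 and Hyou1, against 6.36% of all genes. The log2 fold change was below 0 in 8 of 10, against 50.1% of all genes, with a median of -0.23 beside 0.00 over all genes. All 3 model rats lay below all 3 control rats for 4 of 10, Hspa5, Hsp90b1, Herpud1 and Xbp1, against 9.94% of all genes, with an exact permutation p of 0.1 for each, the smallest possible. Sdf2l1 at 0.15 and Dnajc3 at 0.01 were the genes above 0, and both turned negative when libraries were scaled by size alone, the median of all genes then shifting by -0.144.

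Between the DSS and model groups, which shared the fructose drink, 0 of 10 genes were called by edgeR and 0 by DESeq2, where edgeR called 0.136% of 12502 tested genes and DESeq2 1.18%. Xbp1 alone had an unadjusted p under 0.05, being higher, against 3.54% of all genes in that direction. It was also the 1 gene of the 10 without overlap, higher in the DSS rats, against 6.17% of all genes. The count without overlap depended on scaling and on 1 rat: with library size alone 0 genes were higher and 3 lower without overlap, and without DSS replicate 1 there were 2 higher. The log2 fold change was below 0 in 7 of 10, against 49.9% of all genes, with a median of -0.20. That median was -0.07 without DSS replicate 1 and -0.44 without DSS replicate 3.

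The DSS and control groups differed by both fructose and extract, and 5 of the genes, Hspa5, Hsp90b1, Pdia4, Creld2 and Hyou1, had their widest difference there. By edgeR 0 of 10 genes were called, where 1.48% of 12633 tested genes were, and by DESeq2 1 of 10, Hyou1, where it called 6.09% of all genes. At an unadjusted p under 0.05, edgeR had 4 of 10 lower, Hspa5, Hsp90b1, Creld2 and Hyou1, against 12.5% of all genes. All 3 DSS rats lay below all 3 control rats for 3 of 10, Hspa5, Hsp90b1 and Hyou1, against 15.2% of all genes. With library size alone it was 5 of 10, and 10 of 10 had a log2 fold change below 0. The median of all genes then shifted by -0.136, and the shares over all genes were not computed at that scaling. With TMM the log2 fold change was below 0 in 8 of 10, against 50.9% of all genes, with a median of -0.36 beside -0.01 over all genes. Without DSS replicate 1 that median was -0.26, and the values were -0.45 for Hspa5, -0.38 for Hsp90b1 and -0.70 for Hyou1, with edgeR FDRs of 0.137, 0.207 and 0.107. The antibody genes Ighm and Jchain, markers of plasma and B cells, were also lower in all 3 DSS rats than in all control rats, and their part in the chaperone values was not tested. All 3 comparisons reuse groups, so their values are not independent of each other.

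**Figure D2:**
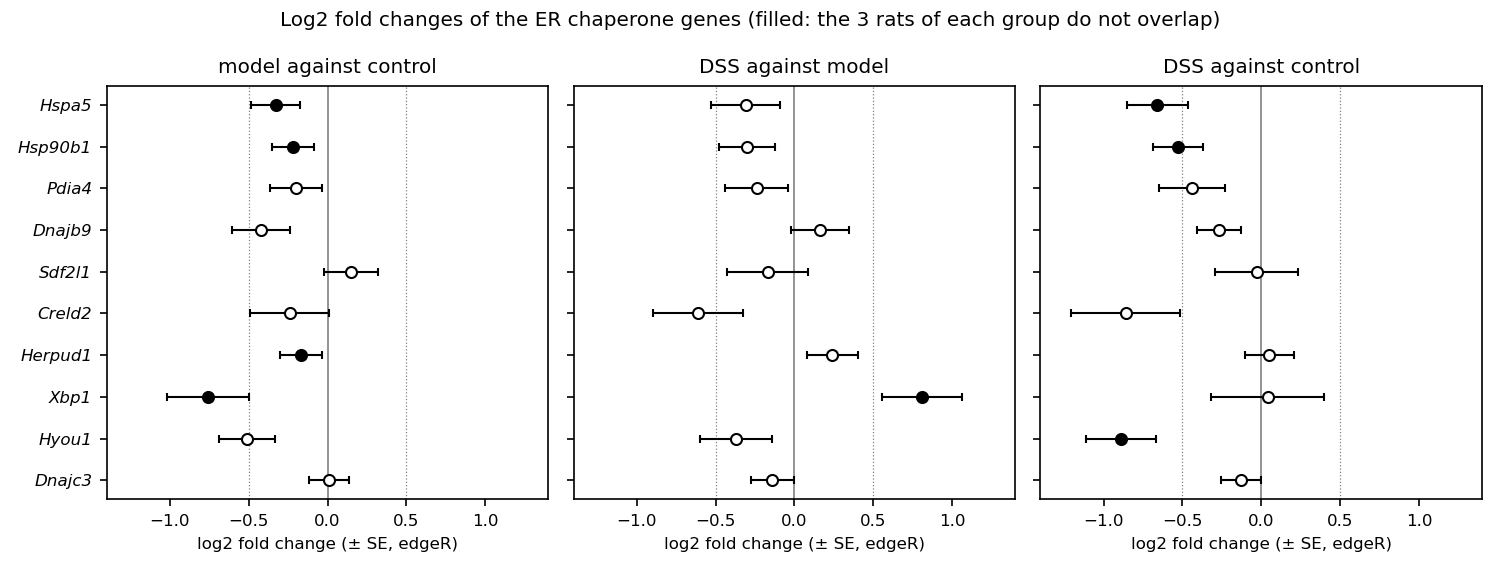
Log2 fold change of each gene (horizontal axes) with its standard error from edgeR, in 3 comparisons; filled points mark genes whose 3 rats per group did not overlap, and dotted lines the fold threshold of 0.5. Hyou1 lies farthest left in DSS against control (-0.89), and Xbp1 moves from -0.76 in model against control to 0.81 in DSS against model.

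In the levels of these 10 genes the DSS rats differed among themselves more, by the median, than the rats of the other groups did. The same spread over all genes was not computed, and on the second principal component the model rats were the most spread. The coefficient of variation of the 10 genes had a median of 26.1% in the DSS group, 14.7% in the control group and 11.5% in the model group. DSS replicate 1 was the lowest of all 9 libraries for 8 of the 10 genes and the lowest DSS rat for 9, while DSS replicate 3 was the highest DSS rat for 9. Xbp1 ran the other way, highest in DSS replicate 1 and lowest in DSS replicate 3. How often all genes took these orders was not counted. The total counts of DSS replicates 1 and 3 were 18600234 and 21180914, within the range of the other libraries, and their TMM factors were 0.989 and 0.914. The part of depth and scaling in these values was not tested.

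Within the 9 rats the chaperones varied together and Xbp1 against them. Over log2 CPM in the 9 libraries, 35 of the 36 pairs of genes without Xbp1 had a positive Pearson r, with a median of 0.68 and a range of -0.01 to 0.95. Hspa5 and Hsp90b1 stood at 0.95. With the group means taken out, the median was 0.73. Of the 9 pairs with Xbp1, 7 had a negative r, and all 9 did with the group means taken out. The lowest were Xbp1 with Dnajc3 (-0.81) and with Sdf2l1 (-0.77), and with the group means taken out Xbp1 with Pdia4 (-0.97) and with Dnajc3 (-0.92). These r describe 9 points that share library, scaling and group, and carry no test.

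The summed level of the 9 genes other than Xbp1 shows the same by rat. In the DSS group it was 1570, 2150 and 2480 CPM for replicates 1, 2 and 3, where Xbp1 stood at 279, 194 and 134 CPM. The sum per unit of Xbp1 was therefore 5.62, 11.1 and 18.5 in these rats. It was 19.6, 20.9 and 9.42 in the control rats, where replicate 3 had the high Xbp1 level of 284 CPM, and 22.1, 19.0 and 23.1 in the model rats. The model rats were alike in this ratio, while the control and DSS groups each held at least 1 rat with a low value.

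**Figure D3:**
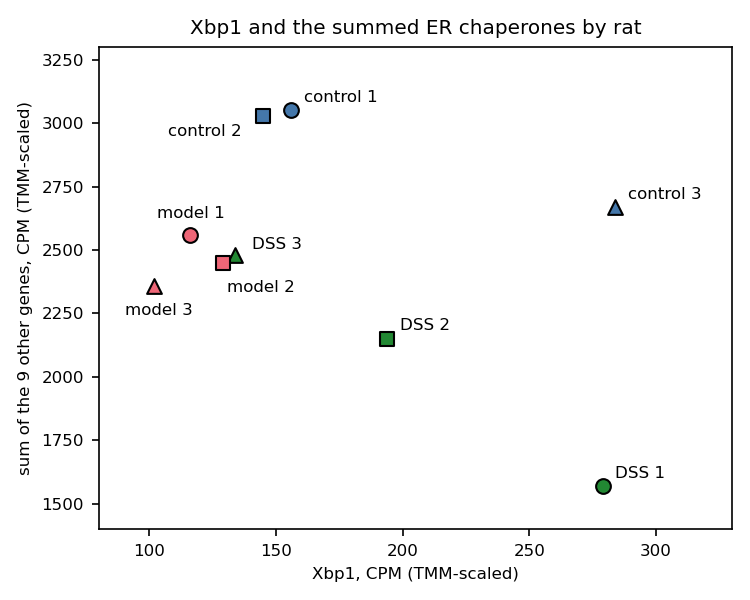
Level of Xbp1 (horizontal axis, CPM) against the summed level of the 9 other genes (vertical axis, CPM, not starting at 0) in each of the 9 rats. The DSS rats run from low Xbp1 and a high sum (134 and 2480 CPM) to high Xbp1 and a low sum (279 and 1570 CPM), and the 3 model rats sit together at the left.

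The genes whose log2 CPM followed the mean of the 10 most closely, among 8858 genes with a mean of at least 5 CPM, were Abcg3l3 (r 0.966), Rpn1 (0.956), Stbd1 (0.956), Nans (0.953), G3bp1 (0.948), Rrbp1 (0.941), Itga5 (0.940), Asnsd1 (0.939), Nudt5 (0.939) and Sec61a1 (0.938). Rpn1 is a subunit of the oligosaccharyltransferase, Sec61a1 the channel through which new proteins enter the ER, and Rrbp1 a ribosome-binding protein of the rough ER. Sec61a1 stood at 355 ± 35.9, 273 ± 17.7 and 251 ± 35.1 CPM in control, model and DSS rats. Its log2 fold change between the DSS and control groups was -0.50 (SE 0.141, edgeR FDR 0.0629). These r are over 9 libraries, with no test.

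The other genes of the pathway were read from lists beside the 10. Of 20 other ER folding genes, edgeR called 0 in every comparison. DESeq2 called 1, in DSS against control, where it called 6.09% of all genes. At an unadjusted p under 0.05 edgeR had 2, 1 and 7 in model against control, DSS against model and DSS against control. The shares of all genes were 13.2%, 8.02% and 24.3%. The medians of the log2 fold changes of the 20 genes were -0.01, -0.14 and -0.17 in that order. In DSS against control 3 of the 20 reached an edgeR FDR of 0.05, against 7.21% of all genes, all lower: Dnajb11, a J-domain partner of BiP (log2 fold change -0.70, FDR 0.0334), Hspa13 (-0.52, FDR 0.0379) and Uggt1, which checks glycoprotein folding (-0.49, FDR 0.0426). The number was 2 without DSS replicate 3, 1 without control replicate 3 and 0 without each of the other 4 rats. Dnajb11 stood at 89.1 ± 11.8, 75.2 ± 10.3 and 55.0 ± 10.5 CPM in the control, model and DSS groups. Of 17 tested genes of ER-associated degradation and translocation, 0 reached an edgeR FDR of 0.05 and DESeq2 called 0, with 1, 2 and 5 at an unadjusted p under 0.05 by edgeR and medians of -0.05, -0.11 and -0.14.

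The sensors upstream of these genes did not pass the test either. Of 11 sensors, proteases and transcription factors, 0 reached an edgeR FDR of 0.05 in model against control, DSS against model or DSS against control, where 0.601%, 0.456% and 7.21% of all genes did, and DESeq2 called 0. At an unadjusted p under 0.05 edgeR had 1, 1 and 4 of them, against 13.2%, 8.02% and 24.3% of all genes, and their medians were 0.00, 0.02 and 0.07. Ern1, which encodes IRE1, the enzyme that splices Xbp1, stood at 54, 70.4 and 77.1 CPM in the control rats, 67.4, 71.9 and 92.3 CPM in the model rats and 48.2, 55.7 and 57.0 CPM in the DSS rats. All DSS rats lay below all model rats (log2 fold change -0.52, SE 0.158, edgeR FDR 0.404), and the share of all genes doing so is not given here. The order of those groups was opposite for Xbp1, while control replicate 3 was the highest control rat for both genes. Atf6 and Eif2ak3, which encodes PERK, had log2 fold changes of -0.35 and -0.42 in model against control, with edgeR FDRs of 0.611 and 0.487. Creb3l3, a liver relative of ATF6, was 0.45 (edgeR FDR 0.319).

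The PERK and ATF4 targets lay on the other side of 0 in both comparisons with the control group. Of 10 tested genes, 9 were above 0 in model against control and 10 in DSS against control, with medians of 0.81 and 0.90, against 49.9% and 49.1% of all genes above 0. By edgeR 0 were called in either comparison, with 6 at an unadjusted p under 0.05 in each, all higher (6.84% and 11.9% of all genes), and DESeq2 called 3 and 4 (2.05% and 6.09%). In DSS against model 5 were above and 5 below 0, with a median of 0.06 and 0 called by either tool. The 2 of 10 at an unadjusted p under 0.05 by edgeR there (8.02% of all genes) were lower, Asns (-1.35, edgeR FDR 0.549) and Atf5 (-0.71, edgeR FDR 0.551). Asns, asparagine synthetase, stood at 3.85, 2.75 and 1.46 CPM in the control rats, 18.0, 22.8 and 31.8 CPM in the model rats and 4.13, 17.9 and 6.25 CPM in the DSS rats. Its log2 fold change was 3.13 in model against control (SE 0.352, edgeR FDR 0.0151), the 1 gene of the list at an edgeR FDR of 0.05 there, against 0.601% of all genes. That number became 0 without control replicate 2 and 3 without model replicate 2. In DSS against control 3 genes reached an edgeR FDR of 0.05, Atf5 (0.97, FDR 0.0286), Trib3 (2.64, FDR 0.0342) and Cth (1.02, FDR 0.0439), and this number was 0 without control replicate 3, 2 without DSS replicate 3 and 1 without each of the other 4 rats. Ddit3, which encodes CHOP, had log2 fold changes of 0.33, -0.28 and 0.04 in the 3 comparisons, with edgeR FDRs of 0.608, 0.861 and 0.929.

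Cytosolic and mitochondrial chaperones, which the heat shock and mitochondrial responses control, lay further below 0 than the ER genes in both comparisons with the control group. All 12 tested genes had a log2 fold change below 0 in model against control (median -0.41, with 50.1% of all genes below 0) and in DSS against control (median -0.66, with 50.9%). In DSS against model 10 of 11 were below 0 (49.9% of all genes), with a median of -0.21 beside -0.20 for the 10 ER chaperones. There edgeR and DESeq2 called 0, with 1 of 11 at an unadjusted p under 0.05 by edgeR, against 8.02% of all genes. In DSS against control 2 of 12 were called by edgeR (1.48% of all genes) and 7 by DESeq2 (6.09%). In model against control edgeR called 0 (0.0801%), with 6 at an unadjusted p under 0.05, all lower (6.36%), and DESeq2 called 2 (2.05%). Hsph1, an Hsp110 chaperone, fell from 149 ± 24.2 CPM in control rats to 56.0 ± 11.4 CPM in DSS rats (log2 fold change -1.41, SE 0.174, edgeR FDR 0.00313). Hsp90aa1, the inducible cytosolic Hsp90, fell from 10.1 ± 3.53 to 3.11 ± 0.345 CPM (log2 fold change -1.71, SE 0.252, edgeR FDR 0.00631). In DSS against control 6 of 12 reached an edgeR FDR of 0.05 (7.21% of all genes), Hspe1, Hspd1, Hsp90ab1 and Hspa8 being the others. Called genes numbered 0 without control replicate 1, control replicate 2 or DSS replicate 3, 1 without DSS replicate 1 or 2, and 2 without control replicate 3. The difference between this list and the ER genes was not tested.

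**Figure D4:**
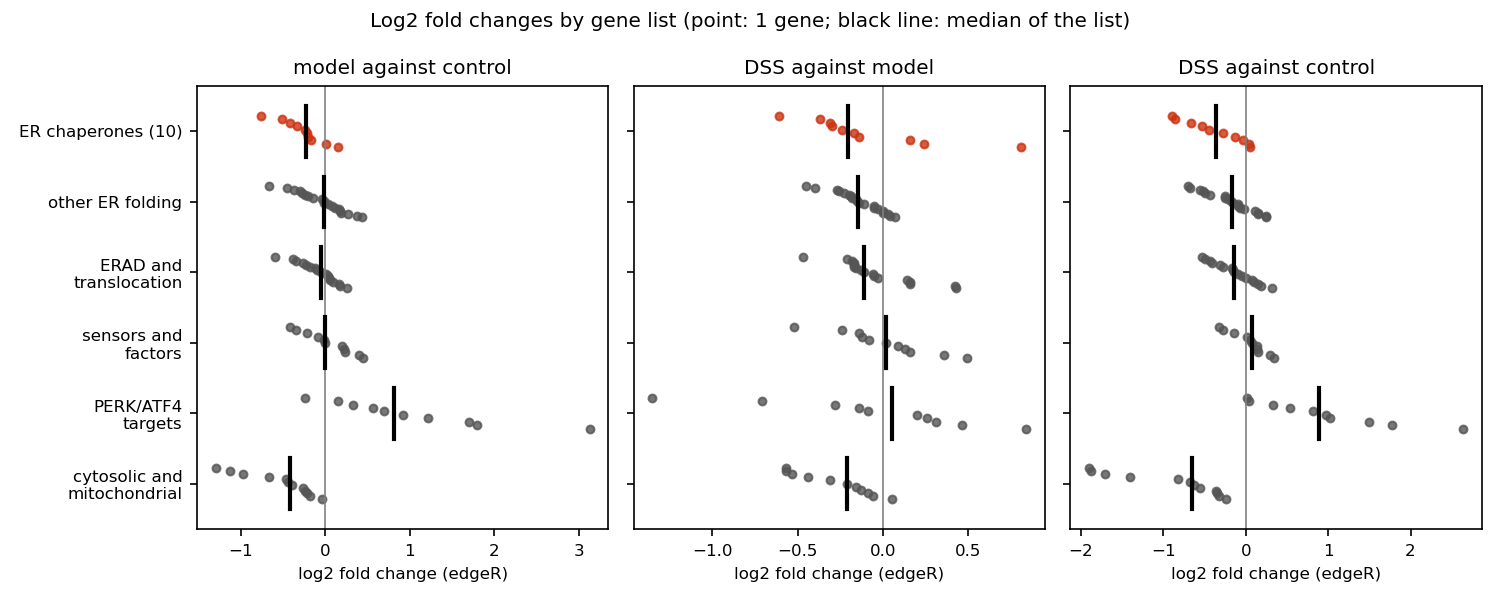
Log2 fold change (horizontal axes, a scale of its own in each panel) of every tested gene of 6 lists in 3 comparisons, with the median of each list as a black line. In DSS against control the 10 ER chaperones have a median of -0.36, the cytosolic and mitochondrial chaperones -0.66 and the PERK and ATF4 targets 0.90.

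Markers of cell types were read beside these values. The 8 hepatocyte markers summed to 143000 to 181000 CPM in the control rats, 182000 to 230000 CPM in the model rats and 178000 to 223000 CPM in the DSS rats, and the libraries thus carried the defining genes of liver. Plasma and B cells are rich in ER chaperones, and 7 of their 8 markers were found, at a sum of 186 to 227, 152 to 218 and 169 to 199 CPM in the control, model and DSS rats. Most of that sum was Sdc1, which liver cells also express. The antibody genes of the list were lower beside the chaperones: Ighm stood at 45.3, 26.2 and 50.9 CPM in the control rats, 31.2, 34.7 and 13.3 CPM in the model rats and 15.6, 12.2 and 21.5 CPM in the DSS rats. Jchain stood at 9.05, 4.89 and 8.19 CPM, 4.97, 6.30 and 2.34 CPM, and 3.81, 2.32 and 2.74 CPM in the same order. For both genes every DSS rat lay below every control rat, with log2 fold changes of -1.31 for Ighm (edgeR FDR 0.0491) and -1.33 for Jchain (edgeR FDR 0.0258). Mzb1, Ms4a1 and Pou2af1 were between 0.119 and 1.24 CPM in every rat. Pancreatic acinar markers, 5 of 8 found, summed to 15.5 to 17.4, 19.9 to 29.0 and 16.9 to 27.4 CPM, nearly all of it Cela1, with Cpa1 at 0 in the model and DSS rats. Leukocyte and Kupffer cell markers, 8 of 8 found, summed to 203 to 476, 154 to 336 and 223 to 300 CPM. The part of cell composition in the chaperone values was not tested.

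The promoter windows can be set beside the fold changes of their genes. The 5 genes with an ERSE or ERSE-II match in the mouse window, Hspa5, Hsp90b1, Creld2, Herpud1 and Dnajc3, had log2 fold changes from -0.86 to 0.05 in DSS against control, with a median of -0.53. The 4 with a window but no match had values from -0.44 to 0.04, with a median of -0.15. In DSS against model the medians were -0.30 with a match and -0.01 without. In model against control they were -0.22 and -0.31, in the other order. The ranges overlapped in every comparison, and these few genes were not tested against each other. The split also rests on the windows of Dnajc3, Pdia4 and Xbp1, whose starts are less certain.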

How the data were processed

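Total RNA of rat liver was enriched for messenger RNA, sequenced on an Illumina platform, aligned by the authors with HISAT2 and counted per gene over exons with HTSeq 0.6.1, unstranded; the submitters' processing notes name the build Rnor_6.0. The authors deposited whole-number counts per gene, without normalization, for 9 libraries. Counts of genes that overlap, and of near-identical copies as in the Hsp90 and Hsp70 families, are less certain, since their reads can also match another gene. A second deposited table of assembled transcripts was not used.

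Each comparison was fitted on its 6 libraries with edgeR 4.0.16 in R 4.3.3 (filterByExpr, TMM, robust glmQLFit, two-sided glmQLFTest, Benjamini-Hochberg FDR over all genes tested). CPM used TMM factors over the 9 libraries, from 0.871 to 1.14. The model was tested on simulated data. Alternatives were FDR 0.05, no minimum fold change, DESeq2 1.42.0, DESeq2 size factors in edgeR, library size alone, no filter, at least 10 counts in every library, all 9 libraries in 1 fit, the replicate number as a block and each rat left out. The overlap of groups under other scalings, and list counts with rats left out, were added after the values were seen.

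The 10 genes, the lists and the motifs were chosen with earlier results of these data known. Named in the text were all 10 genes, the called members and up to 3 members of lowest p of each list, and the 10 genes of most similar pattern. Ddit3, Hspd1, Hsp90ab1, Ighm and Jchain fall outside this rule and were named after their values were seen. Vimp, Nupr1 and Hspa1a of the lists and Cd79a, Pecam1, Prss1, Pnlip and Ctrb1 of the markers were not matched in the table, and 1 marker is not reported here. Promoter windows came from RefSeq for the mouse (GRCm38.p6). The labels do not say whether the rats of a group shared cages or litters, and p-values measure the spread between these 9 rats. Counts of the 10 genes were at least 252 in each library, and the parts of depth and of the spread between rats in the precision were not separated.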

Additional observations from a re-analysis of the deposited data

How the results depend on the processing

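Of 390 log2 fold changes of the 10 genes under the alternatives, 376 kept their direction and whether they were called, 13 changed sign and 1, Hyou1 in DSS against control, passed both thresholds under DESeq2 (-0.89, FDR 0.00164), so that DESeq2 called 1 gene there and edgeR 0. The fold threshold alone was crossed in 16 of the 390, among them Hspa5 and Hsp90b1 in DSS against control without DSS replicate 1 and Xbp1 in model against control without control replicate 3. With each rat left out in turn, edgeR called 0 of the 10 genes in every comparison, and the lowest FDR in DSS against control ranged from 0.0184 to 0.15. Sign changes touched values near 0. With library size alone, model against control became -0.02 for Sdf2l1 and -0.13 for Dnajc3, and DSS against control became -0.08 for Herpud1 and -0.07 for Xbp1. With single rats left out, model against control ranged from -0.04 to 0.06 for Dnajc3 and from -0.01 to 0.26 for Sdf2l1, DSS against model from -0.46 to 0.06 for Sdf2l1, and DSS against control from -0.32 to 0.21 for Sdf2l1, from -0.25 to 0.42 for Xbp1 and from -0.04 to 0.20 for Herpud1. The cause was not tested. Genes without overlap numbered 0 higher and 3 lower in DSS against model and 5 lower in DSS against control with library size alone, and 2 higher in DSS against model without DSS replicate 1.

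Correlations of same-numbered rats' deviations from their group means ranged from -0.23 to -0.02 over 9 pairs. Those of differently numbered rats ranged from -0.14 to 0.21. No pairing by replicate number was seen, but deviations within groups of 3 sum to 0, so this check cannot exclude it. With the replicate number as a block the 10 genes gave 0 calls in each comparison, and the lowest FDR was 0.432, 0.466 and 0.103 in model against control, DSS against model and DSS against control. With 3 rats a group, small differences could not be detected, and groups of 3 allow no check for an outlying rat.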
